A study of Mus musculus with 112 samples.

Results

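Paneth cells of young mice were set against crypt progenitors of young mice, both sorted from the proximal part of the small intestine. From the deposited counts, the young libraries of both gates were taken: 34 technical Paneth libraries, summed per animal into 12 samples, and 10 progenitor libraries, each a sample of its own. These 22 samples and 44 libraries belong to a study of 67 samples and 112 libraries that also sorted intestinal stem cells (ISCs) and mice of 23 to 27 months. The labels give all mice as C57BL/6 with the genotype Lgr5-eGFP-IRES-CreERT2, a knock-in that places GFP and a tamoxifen-inducible Cre recombinase under control of the Lgr5 gene and is known to be expressed in a mosaic of crypts; no treatment is named. Mice were 2 months (18 samples) or 3 months old (4 samples). Paneth samples came from 6 males and 6 females, progenitor samples from 5 males and 5 females, in all 14 animals, 8 of which gave both gates. Live EPCAM-high cells were sorted as Paneth cells when they had high CD24, high side scatter and no GFP, and as progenitors when CD24 was low and GFP medium to low.

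Paneth cells sit at the base of small-intestinal crypts, intermingled with Lgr5-positive stem cells. They store lysozyme, alpha-defensins and other antimicrobial proteins in large granules, and they supply neighbouring stem cells with Wnt, EGF and Notch signals. Progenitors are the dividing daughters of the stem cells that lie above them and go on to absorptive or secretory fates.

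Messenger RNA was read from its 3′ ends (SC3-seq, 1 ng of total RNA per library). Paneth samples held 2.82 to 10.8 M (mega) counts and progenitor samples 2.78 to 5.72 M. The 10 most counted genes took a mean of 69.6% of the counts in Paneth samples and 8.27% in progenitors. Profiles of different animals correlated at a median r of 0.821 among Paneth samples and 0.953 among progenitors (Pearson, across genes, which are not independent), and the biological coefficient of variation was 0.689 in Paneth cells and 0.290 in progenitors. Technical libraries of the same Paneth animal correlated with each other little more than those of different animals (median r 0.752 over 32 pairs and 0.725 over 529). Levels are given below as CPM, with library sizes scaled by TMM (trimmed mean of M values), and as the lowest, median and highest sample of a gate. Log2 fold changes are Paneth minus progenitor, averaged over the sexes, with their SE and the adjusted p of edgeR's quasi-likelihood test (n = 12 and 10).

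What share of the counts came from mitochondria? Transcripts of the mitochondrial genome, which encodes subunits of the respiratory chain, took 51.4, 61.3 and 73.4% of the counts (lowest, median, highest) in Paneth samples. In progenitors they took 2.72, 3.97 and 7.05%. Every Paneth sample lay above every progenitor sample, and the difference of the means within sex was 57.2 percentage points (two-sided permutation test within sex, p = 2e-05, where 1e-05 is the smallest that 100000 permutations can give). Across the 34 technical Paneth libraries the share ran from 49.8 to 74.2%, and libraries of the same animal differed by at most 9.44 points. Nuclear genes were left with 1.09 to 4.74 M counts per Paneth sample and 2.62 to 5.46 M per progenitor sample. Of the genes tested, 307 to 1156 had no count in a Paneth sample and 109 to 189 in a progenitor sample.

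**Figure D1:**
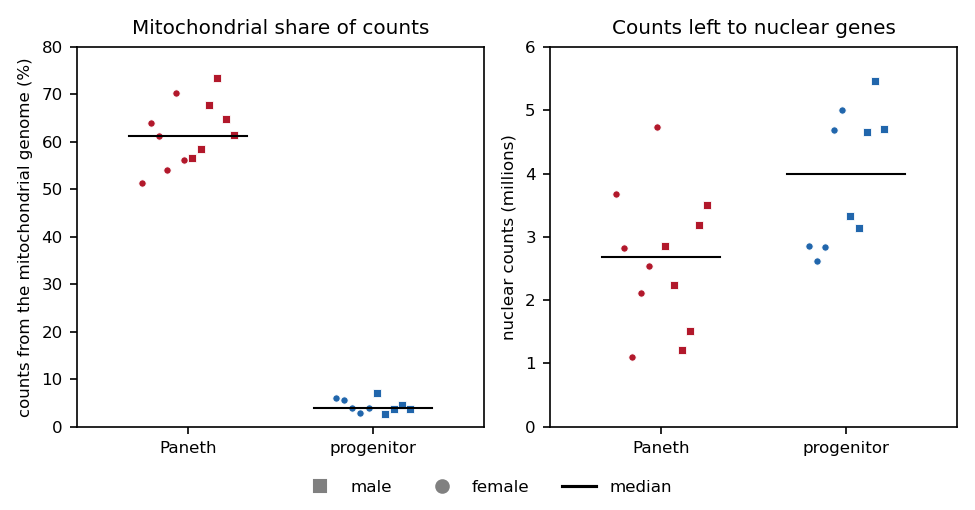
Share of counts from the mitochondrial genome in percent (left) and mega counts left to nuclear genes (right) in each of 12 Paneth and 10 progenitor samples; squares are males, circles females, and bars medians. All Paneth samples lie at 51.4% or above on the left, and all progenitors at 7.05% or below.

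By named transcript, mt-Co1, a subunit of cytochrome oxidase, stood at 11537, 17448 and 31432 CPM in Paneth cells and at 635, 903 and 1293 CPM in progenitors. The ranges were apart, with a log2 fold change of 4.41 ± 0.16 (edgeR adjusted p = 9.88e-22). Of 13 protein-coding mitochondrial transcripts, 8 passed the count filter and were higher in Paneth cells, with mt-Cytb at 5.80 ± 0.24 and mt-Nd4 at 5.76 ± 0.19. The other 5 had at most 74 counts over all Paneth samples. Of 77 nuclear genes of the respiratory chain tested, 7 were higher and 26 lower in Paneth cells, and all 77 were lower when counts were divided by library totals alone. Sdha, a subunit of complex II, was at 196, 251 and 387 CPM against 506, 525 and 623 CPM, without overlap (log2 -1.06 ± 0.11, edgeR adjusted p = 2.21e-09). Atp5f1 and Uqcrfs1, of the ATP synthase and complex III, were lower by like amounts (log2 -1.03 ± 0.10 and -0.97 ± 0.10).

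How many genes differed? Of 11682 genes tested, 2771 (23.7%) passed an edgeR adjusted p of 0.05, of which 1607 (13.8%) were higher and 1164 (9.96%) lower in Paneth cells. Samples of both gates did not overlap for 213 genes with Paneth cells above (1.82%) and 143 with Paneth cells below (1.22%). Beyond 2-fold, tested as such with glmTreat, 377 genes remained (3.23%): 344 higher (2.94%) and 33 lower (0.282%). TMM sets the typical gene near equality, with a median log2 fold change of 0.03 over all tested genes. Dividing by library totals alone moved that median to -1.73 and the share of calls that were higher in Paneth cells from 58.0% to 2.21%. That share was 50.1% with upper-quartile factors, 43.2% with limma-voom and 91.2% beyond 2-fold. Every direction below is thus relative to the typical gene of the same sample. A gene that passed the count filter only through the gate where it was high had to differ, so counts over a gene list describe it and do not test it. A list with about 13.8% of its members higher and 9.96% lower does not stand out from all tested genes. In bulk samples of this kind, fewer cells of a type and less RNA per cell cannot be told apart.

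Lyz1, the lysozyme of Paneth granules (chr10:117287797-117292868 on GRCm38, minus strand), stood at 25669, 44314 and 71014 CPM in Paneth samples and at 144, 180 and 272 CPM in progenitors. Even the lowest Paneth sample lay far above the highest progenitor sample. The fold change was 233 (log2 7.86 ± 0.21, edgeR adjusted p = 2.75e-25), and Lyz1 alone made up 4.19 to 9.14% of the nuclear counts of Paneth samples against 0.0281 to 0.0581% in progenitors. Mmp7, the matrix metalloproteinase that cleaves alpha-defensin precursors in mice (chr9:7692090-7699585, plus strand), was at 1877, 2534 and 5715 CPM against 64.7, 91.4 and 187 CPM. Its ranges were also apart (log2 4.73 ± 0.25, edgeR adjusted p = 4.91e-13). Itln1, a lectin that binds microbial sugars, was at 18634, 26312 and 50251 CPM in Paneth samples and at 171, 277 and 419 CPM in progenitors (log2 6.64 ± 0.20). The labelled cell type therefore carried its defining transcripts in all 12 samples.

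Of 25 Paneth markers listed, 22 passed the count filter, and 20 were higher and 1 lower in Paneth cells, with a median log2 fold change of 7.75 beside 0.03 for all genes. For 20 of the 22 the gates did not overlap. Together the markers took 15.4, 20.6 and 34.1% of the nuclear counts in Paneth samples and 0.159 to 0.279% in progenitors. Ang4, a microbicidal ribonuclease, Clps, the cofactor of pancreatic lipase, and Habp2, a serine protease, were among those higher (log2 6.35, 6.97 and 6.59). The mucosal pentraxin Mptx2 was higher too (log2 8.20), whereas its neighbour in name, Mptx1, was the one marker lower in Paneth cells, at 0, 0.229 and 2.17 CPM against 1.27, 4.46 and 10.2 CPM (log2 -3.18 ± 0.68, edgeR adjusted p = 0.000594). Both are close relatives, and reads of such pairs are assigned with uncertainty. The potassium channel gene Kcnn4 did not pass (log2 0.12, edgeR adjusted p = 0.651). Ang5 and Ang6 were too low to test, with 42 and 18 counts over the 12 Paneth samples and none in progenitors, and Defa20 had no count.

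**Figure D2:**
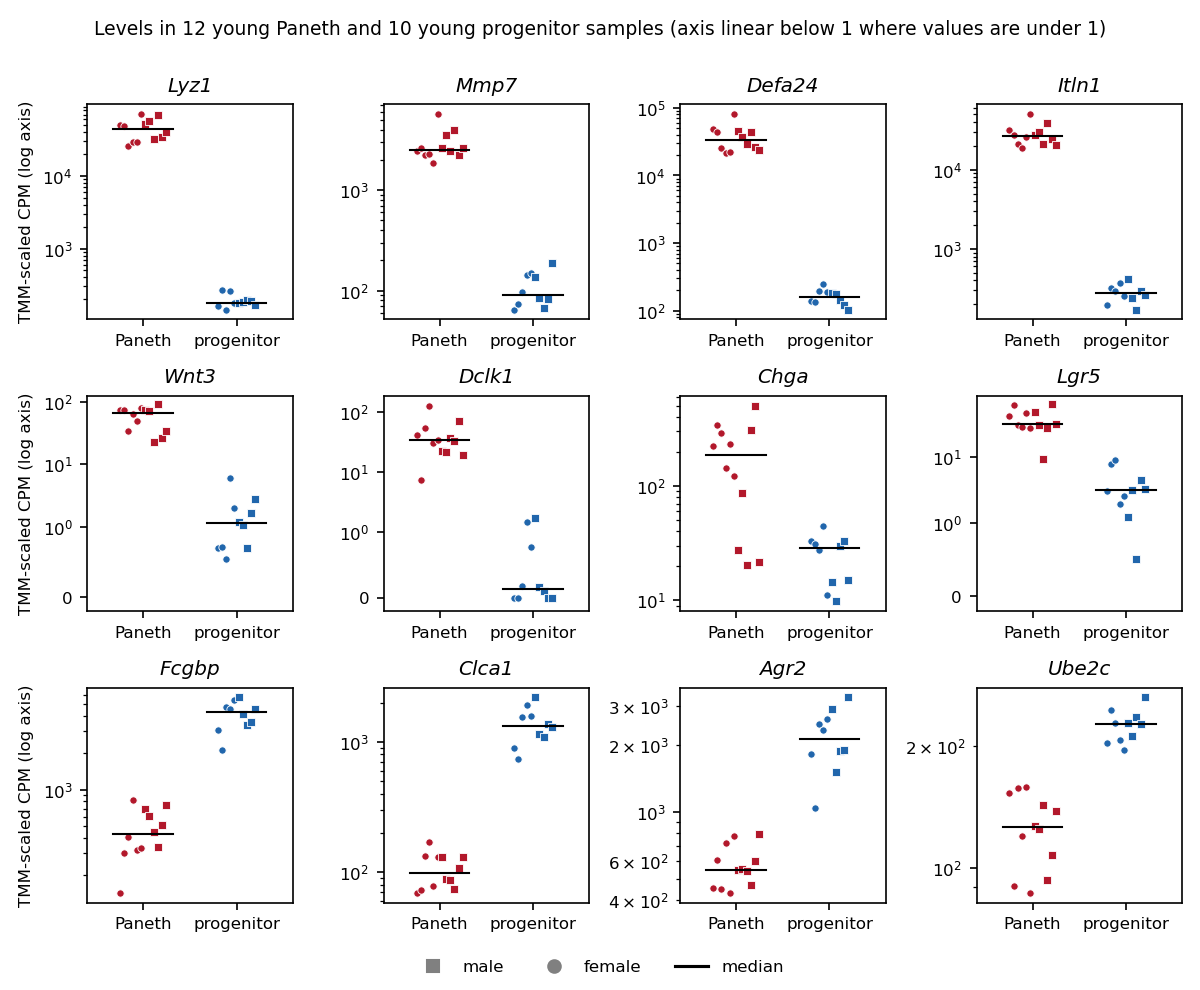
Level of 12 genes in each of 12 Paneth and 10 progenitor samples, as TMM-scaled CPM on a log axis (linear below 1 where values fall under 1); squares are males, circles females, and bars medians. The antimicrobial genes, Wnt3, Dclk1 and Lgr5 lie higher in every Paneth sample, Chga overlaps, and Fcgbp, Clca1, Agr2 and Ube2c lie lower in every Paneth sample.

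Alpha-defensins, the cryptdin peptides of Paneth granules, are encoded by a multigene family on chromosome 8, and near-identical copies make the assignment of a read to a single Defa gene uncertain. Of 22 Defa genes in the table, 13 passed the count filter and all of those were higher, without overlap, by a log2 of 7.73 to 11.15 (median 8.26). Some of these genes, such as Defa24, were also counted among the Paneth markers above. The family as a whole took 5.74, 7.70 and 15.9% of the nuclear counts in Paneth samples, and at most 0.0724% in progenitors. Defa24 was the most counted of those described here, at 21648, 33334 and 80951 CPM against 104, 158 and 246 CPM (log2 7.84 ± 0.28). Defa21 and Defa22 stood furthest apart, at 564, 1222 and 3033 CPM against 0.267, 0.591 and 1.37 CPM for Defa21 (log2 11.15 ± 0.42, edgeR adjusted p = 1.27e-14), and by a log2 of 10.66 ± 0.48 for Defa22. Of the 9 Defa genes not tested, 4 had no count in Paneth cells and the others at most 119.

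The promoters of these genes are shown because Defa genes moved together and because Wnt signalling through TCF factors is known to drive Defa and Mmp7 transcription. RefSeq windows on GRCm38.p6, of 250 bases before to 50 after a start, were at hand for 5 of the 13 tested Defa genes, for Lyz1 and for Mmp7 (the first of its 2 windows is printed). Capitals mark the TATA box TATAAA and the TCF core TCAAAG, searched on both strands; the motifs share no overlap in these windows. The lines run 5′ to 3′ on the strand of the gene, which is minus for Lyz1 and plus for the others.
Defa21, chr8:21025295-21025594: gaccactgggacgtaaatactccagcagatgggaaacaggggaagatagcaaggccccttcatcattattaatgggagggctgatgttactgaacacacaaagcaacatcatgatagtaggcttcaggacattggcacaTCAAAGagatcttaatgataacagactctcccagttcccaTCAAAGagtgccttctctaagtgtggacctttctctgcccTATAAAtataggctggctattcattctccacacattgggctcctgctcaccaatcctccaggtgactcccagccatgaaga
Defa35, chr8:21064788-21065087: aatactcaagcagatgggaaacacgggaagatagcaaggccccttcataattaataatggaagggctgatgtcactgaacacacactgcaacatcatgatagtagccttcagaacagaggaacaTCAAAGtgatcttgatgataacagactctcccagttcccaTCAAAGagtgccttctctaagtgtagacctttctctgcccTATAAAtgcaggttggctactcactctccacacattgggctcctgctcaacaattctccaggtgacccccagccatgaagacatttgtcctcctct
Defa30, chr8:21134400-21134699: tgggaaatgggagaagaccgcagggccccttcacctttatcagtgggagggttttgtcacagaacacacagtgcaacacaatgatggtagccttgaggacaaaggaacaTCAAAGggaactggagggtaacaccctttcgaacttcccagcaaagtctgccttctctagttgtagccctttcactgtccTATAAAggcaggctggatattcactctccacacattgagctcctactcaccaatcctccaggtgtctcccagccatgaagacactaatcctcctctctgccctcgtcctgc
Defa28, chr8:21582777-21583076: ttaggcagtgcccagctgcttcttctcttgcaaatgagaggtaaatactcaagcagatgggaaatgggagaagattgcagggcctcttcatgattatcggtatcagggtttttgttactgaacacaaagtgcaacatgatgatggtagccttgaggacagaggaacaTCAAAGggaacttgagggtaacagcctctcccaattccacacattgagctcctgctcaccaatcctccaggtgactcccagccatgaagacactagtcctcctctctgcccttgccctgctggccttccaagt
Mmp7, chr9:7691840-7692139: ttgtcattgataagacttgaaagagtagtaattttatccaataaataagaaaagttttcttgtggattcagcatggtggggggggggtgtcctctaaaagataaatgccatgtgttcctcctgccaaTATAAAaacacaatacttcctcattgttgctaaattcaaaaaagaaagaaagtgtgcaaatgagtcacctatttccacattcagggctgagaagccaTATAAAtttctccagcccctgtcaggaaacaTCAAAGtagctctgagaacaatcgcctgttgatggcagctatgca
Lyz1, chr10:117292819-117293118: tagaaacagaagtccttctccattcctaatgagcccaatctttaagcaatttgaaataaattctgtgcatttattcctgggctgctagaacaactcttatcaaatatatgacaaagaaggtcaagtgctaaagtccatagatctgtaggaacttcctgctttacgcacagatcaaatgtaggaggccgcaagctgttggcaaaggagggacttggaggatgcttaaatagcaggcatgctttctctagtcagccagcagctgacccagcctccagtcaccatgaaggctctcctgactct
The window of Defa22 (chr8:21162027-21162326) equals that of Defa21 in all 300 bases, and that of Defa35 matches it in 91.6% of 285 bases once shifted by 15. In Defa21 the TCF core begins 111 and 71 bases upstream of the start and the TATA box 31 bases upstream; Defa35 holds the same 3 elements at 126, 86 and 46. Defa30 holds 1 core at 141 and a TATA box at 61, and Defa28 1 core at 83 and no TATA box. In Mmp7 the TATA box begins 123 and 26 bases upstream and the core lies just past the start, at base 6. Neither motif occurs in the Lyz1 window. Over all 32851 mouse windows of this length, 16.0% hold at least 1 TCAAAG and 1.73% at least 2, and 13.6% hold TATAAA. Matches are descriptions of the letters and not of binding.

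Among the signals that Paneth cells are known to send, Wnt3 was the furthest apart. This Wnt ligand of the stem cell niche (chr11:103774150-103817957, plus strand) was at 22.5, 66.9 and 92.3 CPM in Paneth samples and at 0.543, 1.16 and 6.07 CPM in progenitors. The gates did not overlap (log2 4.96 ± 0.37, edgeR adjusted p = 8.67e-13). The growth factor gene Egf was higher as well, at 0, 13.3 and 32.9 CPM against 0.823, 2.50 and 5.61 CPM, with 1 Paneth sample at 0 (log2 2.46 ± 0.50, edgeR adjusted p = 0.000371, and 0.70 with library totals alone, where it did not pass). Of 19 niche signals listed only 8 were abundant enough to test, and 3 were higher: Wnt3, Egf and the EGF family member Areg. Areg did not pass when the animal was kept as a block (edgeR adjusted p = 0.0963 over the 8 animals with both gates), and its log2 fold change of 2.72 was 1.93 without Paneth female 2. The Notch ligands Dll1 and Dll4, which Paneth cells are known to present, did not pass (log2 -0.46 and -0.06). The list's median was -0.26, and with library totals alone 1 member was higher and 5 were lower. Rspo1, Rspo3 and Bmp4, signals of the surrounding mesenchyme, had no count in Paneth samples.

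Of 19 Notch pathway genes tested, 3 were higher and 1 lower in Paneth cells (median log2 -0.14). Over all tested genes 13.8% were higher and 9.96% lower, so these counts do not set the list apart. With library totals alone none of the 19 was higher and 16 were lower. With the animal as a block 1 was higher and 2 were lower. Rfng, a glycosyltransferase that tunes Notch ligand binding, was at 24.5, 40.5 and 113 CPM against 19.2, 25.1 and 34.1 CPM (log2 0.95 ± 0.22, edgeR adjusted p = 0.00153; -0.82 with library totals alone), with overlap. The receptor gene Notch1 (log2 1.34 ± 0.30, edgeR adjusted p = 0.00114; -0.41 with library totals alone) and the ligand gene Jag2 (log2 2.79 ± 0.78, edgeR adjusted p = 0.00785) were higher but did not pass with the animal as a block (edgeR adjusted p = 0.0905 and 0.172); without Paneth male 1, Jag2 stood at 2.06. The protease gene Adam17 was lower (log2 -1.19 ± 0.36). Hes1, the main effector of Notch in crypts, did not pass (log2 0.24).

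Wnt target genes were higher in 9 of 16 tested and lower in none (median log2 1.39), against 4 higher and 4 lower with library totals alone. Ephb3, the receptor that keeps Paneth cells at the crypt base, was at 6.31, 13.3 and 36.4 CPM against 0.790, 1.47 and 1.95 CPM, without overlap (log2 3.4 ± 0.37, edgeR adjusted p = 9.94e-09). Nkd1, an inhibitor induced by Wnt, had no count in 8 of the 10 progenitor samples and 1.47, 7.72 and 18.6 CPM in Paneth samples (log2 6.15 ± 0.77, and 8.29 without progenitor female 5). Sox9, a transcription factor that Paneth cells need, was at 17.3, 39.3 and 86.4 CPM against 9.01, 12.3 and 20.9 CPM, with overlap (log2 1.78 ± 0.21, edgeR adjusted p = 4.27e-08, and 0.04 with library totals alone). Ephb2, Ccnd1 and Ccnd2 did not pass.

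Markers of stem cells, a list that shares members such as Lgr5 with the Wnt targets, were also higher in the Paneth gate. Lgr5, whose reporter set the gates and which is therefore a check of the sort, was at 9.33, 30.6 and 62.7 CPM in the GFP-negative Paneth gate and at 0.504, 3.08 and 8.86 CPM in the GFP medium to low progenitor gate (chr10:115450311-115587780, minus strand). Under TMM scaling, the gate sorted as free of GFP thus carried more Lgr5 transcript in every sample (log2 3.39 ± 0.35, edgeR adjusted p = 3.70e-09). The ranges lay close together, and TMM factors were 0.357 to 0.766 in Paneth samples and 1.84 to 2.06 in progenitors. With library totals alone the ranges of Lgr5 therefore overlap. Olfm4, a secreted glycoprotein of stem cells, was at 1019, 1665 and 3103 CPM against 576, 811 and 1094 CPM, with overlap (log2 1.09 ± 0.14, edgeR adjusted p = 2.66e-07, and -0.64 with library totals alone). Of 23 ISC markers tested, 18 were higher and none lower (median log2 1.13), whereas with library totals alone 2 were higher and 11 lower.

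On a scale common to the 33 young samples of all 3 gates, the ISC gate held the highest levels. Lgr5 had medians of 112 CPM in ISCs, 38.9 in Paneth cells and 3.97 in progenitors; the highest Paneth sample (81.1) reached into the ISC range (74.1 to 125), and the lowest Paneth sample (12) stayed above the highest progenitor (11.3). Olfm4 had medians of 7486, 2145 and 1038 CPM in the same order, with ISCs apart from both others and Paneth cells overlapping progenitors. Ascl2, a transcription factor of stem cells, followed with 149, 52.5 and 22.9 CPM, ISC samples at or above 114 and Paneth samples at or below 114. Prom1, the antigen CD133, had medians of 196, 107 and 108 CPM, and its test between Paneth cells and progenitors did not pass (log2 -0.07). How far carried-over stem cells contribute to the Paneth samples was not tested.

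**Figure D3:**
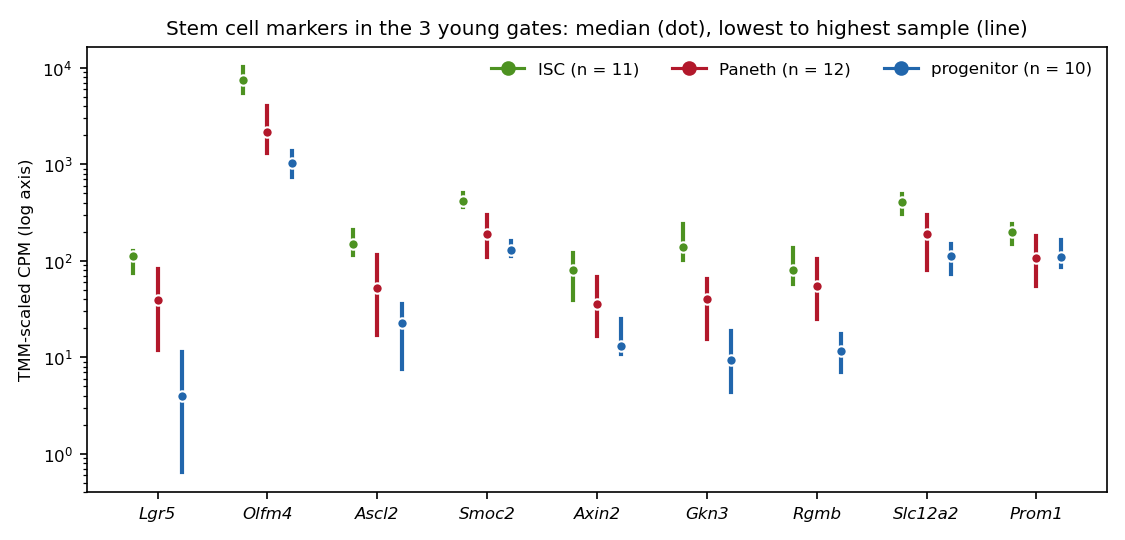
Level of 9 stem cell markers in the ISC, Paneth and progenitor gates of young mice, as TMM-scaled CPM on a log axis; dots are medians and lines run from the lowest to the highest sample (n = 11, 12 and 10). Lgr5 falls from a median of 112 CPM in ISCs to 38.9 in Paneth cells and 3.97 in progenitors, while Prom1 has medians of 107 and 108 CPM in the last 2; with library totals alone 11 of 23 tested ISC markers were lower in Paneth cells than in progenitors.

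CD24 and EPCAM were sort markers too. Cd24a was at 318, 542 and 791 CPM in Paneth samples and 81.3, 108 and 147 CPM in progenitors, apart as the gates would have it (log2 2.26 ± 0.14). Epcam was lower in the Paneth gate, at 202, 260 and 378 CPM against 277, 469 and 530 CPM, with overlap (log2 -0.74 ± 0.12).

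Transcripts known from tuft cells, the chemosensory cells of the epithelium, were higher in the Paneth gate. Dclk1, a kinase that marks them, was at 7.29, 33.5 and 129 CPM in Paneth samples and at 0, 0.129 and 1.68 CPM in progenitors, 4 of which had no count (log2 6.51 ± 0.63, edgeR adjusted p = 8.03e-09; 7.63 without progenitor male 1). The gates did not overlap. Dclk1 is counted from few molecules: the highest technical library of an animal was a median of 3.27 times its lowest. The highest animal mean was 26.1 times the lowest, an extreme over all animals and not a median. Both ratios are of CPM with library totals alone, without TMM. Sh2d6, another tuft gene, was at 69.5, 151 and 434 CPM against 0.177, 1.06 and 2.17 CPM (log2 7.22 ± 0.37, edgeR adjusted p = 2.09e-14). Of 26 tuft markers 17 passed the filter and 16 of those were higher (median log2 6.26); the sweet taste receptor gene Tas1r3 did not pass (log2 1.1). None of the 26 was at 0 in the Paneth gate, and 7 were at 0 in progenitors. Their summed level was 230, 627 and 1923 CPM in Paneth samples and 5.78, 12.1 and 24.0 CPM in progenitors, with female 4 highest. Plcb2, the phospholipase of taste signalling, had 833 counts in Paneth samples and 2 in progenitors, a ratio of 712 with a 95% counting interval of 197 to 5875.

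Some transcripts known from enteroendocrine cells, the hormone-secreting cells of the epithelium, were higher in the Paneth gate and differed widely between animals. Chga, a granin that marks them, was at 20.3, 185 and 503 CPM in Paneth samples and at 9.80, 28.8 and 45.0 CPM in progenitors (log2 2.96 ± 0.55, edgeR adjusted p = 0.000519). Of the Paneth samples 3, all male, lay within the progenitor range. In Chga the highest technical library of an animal was a median of 1.46 times its lowest. The highest animal mean was 30.4 times the lowest, an extreme over all animals and not a median. These ratios, too, are of CPM with library totals alone. Sst, somatostatin, was at 4.91, 67.6 and 683 CPM against 0, 0 and 2.83 CPM, without overlap (log2 8.94 ± 1.23, edgeR adjusted p = 2.21e-05), and Gip, an incretin, at 8.49, 59.9 and 917 CPM against 1.12, 5.93 and 27.5 CPM, with overlap (log2 4.8 ± 0.95, edgeR adjusted p = 0.000995). Without Paneth male 5 the log2 fold changes of Sst and Gip were 7.87 and 3.95, and that of Sst was 9.57 and 10.27 without progenitor male 2 or female 1. Of 15 hormones and granins tested 5 were higher and none lower (median log2 1.45), but 3 higher and 4 lower with library totals alone. The peptide hormone genes Sct, Cck and Gcg did not pass (log2 0.60, -0.14 and -0.04). The summed level of all 20 hormones and granins listed ran from 168 to 3099 CPM in Paneth samples, with male 5 highest. In progenitors it ran from 66.4 to 257 CPM. Of 8 enteroendocrine transcription factors tested 4 were higher, among them Nkx2-2, which directs hormone cell fates (log2 3.18 ± 0.70, edgeR adjusted p = 0.000775); with library totals alone 2 were higher and 2 lower, while a block for the animal gave 2 higher.

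Immune transcripts were low but present in the Paneth gate. Of 30 immune markers 9 passed the filter, 6 were higher and none lower (median log2 7.19; 6 higher and 2 lower with library totals alone, 6 and 1 with the animal as a block), with a summed level of 30.1, 101 and 298 CPM in Paneth samples against 6.79, 9.95 and 11 CPM in progenitors. Lyz2, the lysozyme of macrophages and a close relative of Lyz1, so that some reads may be assigned with uncertainty, was at 5.41, 20.2 and 45.6 CPM against 0, 0.140 and 0.362 CPM (log2 7.19 ± 0.54). Igkc, the immunoglobulin kappa constant region, was at 3.04, 15.4 and 60.4 CPM against 0, 0 and 0.504 CPM (log2 7.71 ± 0.64, and 8.31 without progenitor female 3). It differed by a median of 8.06 times between technical libraries of the same animal, in CPM with library totals alone. The pan-leukocyte gene Ptprc had 69 counts over the Paneth samples and 1 in progenitors, and Cd3e, of the T cell receptor complex, had 4 and 2. Cd79b, of the B cell receptor, and Itgam, an integrin of myeloid cells, had fewer counts in Paneth samples (55 against 294 and 41 against 160) and did not pass (log2 -1.51 each). Cd8b1 and Cma1 had none in either gate, and 13 of the 30 markers had none in progenitors. Ccl5, a chemokine of T and natural killer cells and one of the 10 genes furthest higher, had 810 counts in Paneth samples and none in progenitors, at least 461-fold higher against a floor of 3 counts over the progenitor group. Stromal and endothelial markers were all too low to test: their sum was at most 5.04 CPM in Paneth samples and 1.26 CPM in progenitors, and 6 of 13, among them Pdgfra, Dcn and Kdr, had no count in Paneth samples. The part of these other cells in the differences reported here was not tested.

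**Figure D4:**
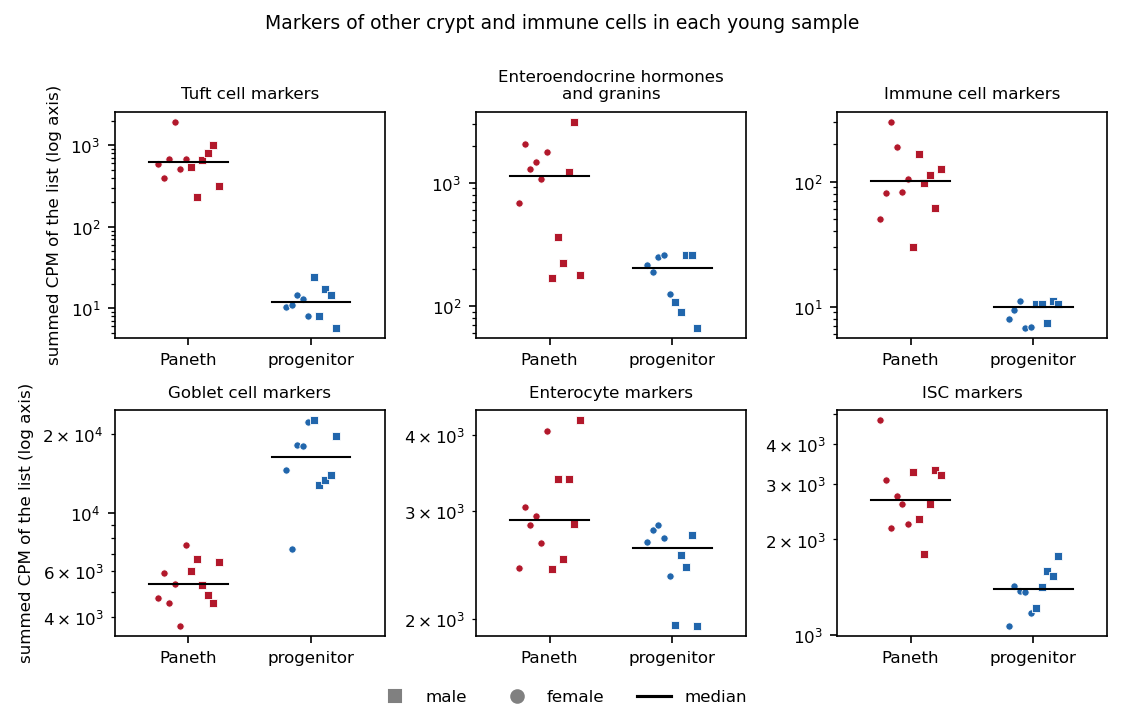
Summed TMM-scaled CPM (log axis) of 6 marker lists in each of 12 Paneth and 10 progenitor samples; squares are males, circles females, and bars medians. Tuft, immune and ISC sums are higher in every Paneth sample than in any progenitor, goblet sums run from 3701 to 7538 CPM against 7302 to 22597 CPM, and enteroendocrine and enterocyte sums overlap; with library totals alone 11 of 23 tested ISC markers were lower in Paneth cells.

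Other genes furthest higher by the naming rule were Samd5, Siglecf and Pygl. Samd5 had 1032 counts in Paneth samples and 1 in progenitors, a ratio of 1763 (95% counting interval 316 to 69637). Siglecf, a sialic acid-binding lectin of eosinophils that tuft cells also express, was at 6.31, 23.3 and 51.4 CPM against 0, 0 and 0.406 CPM (log2 9.01 ± 0.66, and 10.17 without progenitor male 5). Pygl, the glycogen phosphorylase of liver, had 908 counts against 3, a ratio of 517 (95% counting interval 177 to 2507).

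Goblet cell genes, which serve the mucus layer, led the other direction. Clca1, a mucus-processing protease, was at 68.9, 97.8 and 170 CPM in Paneth samples and at 731, 1321 and 2187 CPM in progenitors. The gates did not overlap (log2 -3.70 ± 0.18, edgeR adjusted p = 1.47e-16). Fcgbp, a mucin-binding protein, was at 142, 432 and 830 CPM against 2124, 4336 and 5693 CPM (log2 -3.14 ± 0.24, edgeR adjusted p = 1.19e-09), and Zg16, a lectin of mucus, at 94.7, 259 and 756 CPM against 1243, 3004 and 4992 CPM (log2 -3.38 ± 0.28). Both were lower in every Paneth sample. Agr2, the disulphide isomerase needed for mucin folding, was lower by a log2 of 1.91 ± 0.15, at 431, 549 and 794 CPM against 1035, 2120 and 3270 CPM. Of 18 goblet markers tested 12 were lower and 2 higher (median log2 -1.32; none higher and 16 lower with library totals alone). Of the genes described here, Scin, which severs actin filaments, was lower by the largest amount, at 1.65, 5.31 and 22.6 CPM against 27.3, 84.9 and 184 CPM (log2 -3.89 ± 0.31). The calpain gene Capn9 and the genes Bcas1, Pla2g10, Fer1l6 and Anxa3 were also among those furthest lower, the last 4 by a log2 of -3.0, -3.50, -3.33 and -2.85. Leaving out 1 Paneth sample moved these to -3.68 for Bcas1 (female 6), -4.09 for Pla2g10 (male 6), -4.12 and -3.93 for Fer1l6 (male 5 or female 4), and -3.54 and -3.45 for Anxa3 (male 2 or female 4).

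Not all secretory genes were lower. Spink4, a protease inhibitor made by goblet and Paneth cells, was higher at 952, 1438 and 2332 CPM against 92.9, 395 and 597 CPM, without overlap (log2 1.95 ± 0.24, edgeR adjusted p = 3.01e-06; 0.16 with library totals alone, where it did not pass). The receptor-modifying gene Ramp1 was also higher (log2 1.44 ± 0.20, and -0.37 with library totals alone). Muc2, the main gel-forming mucin, was at 445, 773 and 1657 CPM against 583, 1312 and 1817 CPM, with wide overlap. It did not pass (log2 -0.54 ± 0.22, edgeR adjusted p = 0.0774), but passed with the animal as a block (log2 -0.71, edgeR adjusted p = 0.000157), and without Paneth female 6 or progenitor female 2 (adjusted p = 0.0234 and 0.0208). Atoh1, the factor that commits cells to all secretory fates, was at 13.1, 27.5 and 51.0 CPM against 19.4, 41.6 and 58.3 CPM and did not pass (log2 -0.36 ± 0.23, edgeR adjusted p = 0.276). Of 12 secretory transcription factors tested 3 were higher and 1 lower (median log2 0.22), against 13.8% and 9.96% of all tested genes. Creb3l1, the lower one, lost its call in 10 of 22 fits that each left out 1 sample. With library totals alone 1 of the 12 was higher and 10 were lower. With the animal as a block 3 were higher and none lower. Bhlha15, which builds the secretory apparatus, was at 49.5, 84.8 and 190 CPM against 6.37, 11.2 and 14.3 CPM, without overlap (log2 3.07 ± 0.22, edgeR adjusted p = 4.11e-13). Foxa1, a pioneer factor of endoderm, was higher by a log2 of 1.00 ± 0.27 (-0.83 with library totals alone). Spdef and Gfi1, which act downstream of Atoh1, did not pass (log2 -0.01 and 0.28).

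The secretory apparatus itself moved unevenly. Of 33 genes of endoplasmic reticulum (ER) folding and the unfolded protein response tested, 10 were higher and 4 lower (median log2 0.03; 1 higher and 29 lower with library totals alone). Ern2, the epithelial IRE1 stress sensor, was at 28.7, 56.9 and 117 CPM against 12.7, 21.5 and 27.8 CPM, without overlap (log2 1.6 ± 0.21, edgeR adjusted p = 3.24e-07; -0.16 with library totals alone). Ero1lb, an ER oxidase, and Derl3, of ER-associated degradation, were higher (log2 2.01 ± 0.35 and 3.25 ± 0.60). The chaperone genes Hspa5 (BiP) and Hsp90b1 (GRP94) were lower, at 224, 402 and 708 CPM against 423, 755 and 1102 CPM for Hspa5 (log2 -0.85 ± 0.18) and by -0.77 ± 0.11 for Hsp90b1, whose gates did not overlap. Of 42 genes of the translocon, glycosylation and vesicle coats tested, 2 were higher and 15 lower (median log2 -0.24; none higher and 42 lower with library totals alone). Ostc, of the oligosaccharyltransferase, was at 46.8, 86.7 and 160 CPM against 171, 222 and 280 CPM, without overlap (log2 -1.30 ± 0.15, edgeR adjusted p = 2.81e-08), and Sec13, of the COPII coat, was lower by a log2 of 1.00 ± 0.13.

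Zinc is stored in Paneth granules, and Slc30a2, a zinc transporter of secretory vesicles, was at 14.0, 31.6 and 60.9 CPM against 1.06, 3.79 and 12.5 CPM, without overlap (log2 2.89 ± 0.32, edgeR adjusted p = 1.60e-08). It was the one gene of 19 zinc transporters and metallothioneins that was higher, and 3 were lower (median log2 -0.09). For all tested genes the shares were 13.8% higher and 9.96% lower, so these counts do not set the list apart. With library totals alone 1 was higher and 16 lower, while a block for the animal gave 2 higher and 3 lower. Autophagy and lysosome genes were higher in 13 of 23 tested and lower in 1 (median log2 0.52), whereas with library totals alone none was higher and 17 were lower. Atg7, which starts the conjugation steps of autophagosome formation, was at 21.4, 41.3 and 70.2 CPM against 12.6, 15.8 and 21.7 CPM (log2 1.41 ± 0.21, edgeR adjusted p = 4.12e-06; -0.41 with library totals alone). The autophagy receptor Sqstm1 and the kinase Ulk1 were higher too (log2 0.86 ± 0.15 and 1.29 ± 0.25, and -0.91 and -0.47 with library totals alone), and the protease gene Ctss was lower (log2 -0.92 ± 0.26).

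Some genes of the dividing cell were lower in the Paneth gate. Of 30 mitosis genes tested 17 were lower and none higher (median log2 -0.65). Ube2c, the ubiquitin enzyme of mitotic exit, was at 86.8, 126 and 158 CPM in Paneth samples and at 196, 227 and 263 CPM in progenitors, without overlap (log2 -0.84 ± 0.12, edgeR adjusted p = 1.46e-06). Mki67, the usual marker of cycling cells, was at 83.1, 114 and 163 CPM against 106, 159 and 217 CPM (log2 -0.49 ± 0.14, edgeR adjusted p = 0.00702), with wide overlap. Aurkb and Ccna2 were lower by like amounts (log2 -0.88 and -0.85). Of 29 DNA replication genes 14 were lower and none higher (median log2 -0.45). Rrm2, the inducible subunit of ribonucleotide reductase, was at 3.30, 8.90 and 26.2 CPM against 28.4, 36.4 and 46.5 CPM, without overlap (log2 -1.59 ± 0.29, edgeR adjusted p = 7.99e-05). The sliding clamp Pcna and the helicase subunit Mcm6 were lower too (log2 -0.89 and -0.73). Female 1, highest of the Paneth samples in ISC markers (4759 CPM), was also highest in summed mitosis genes (1934 CPM).

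**Figure D5:**
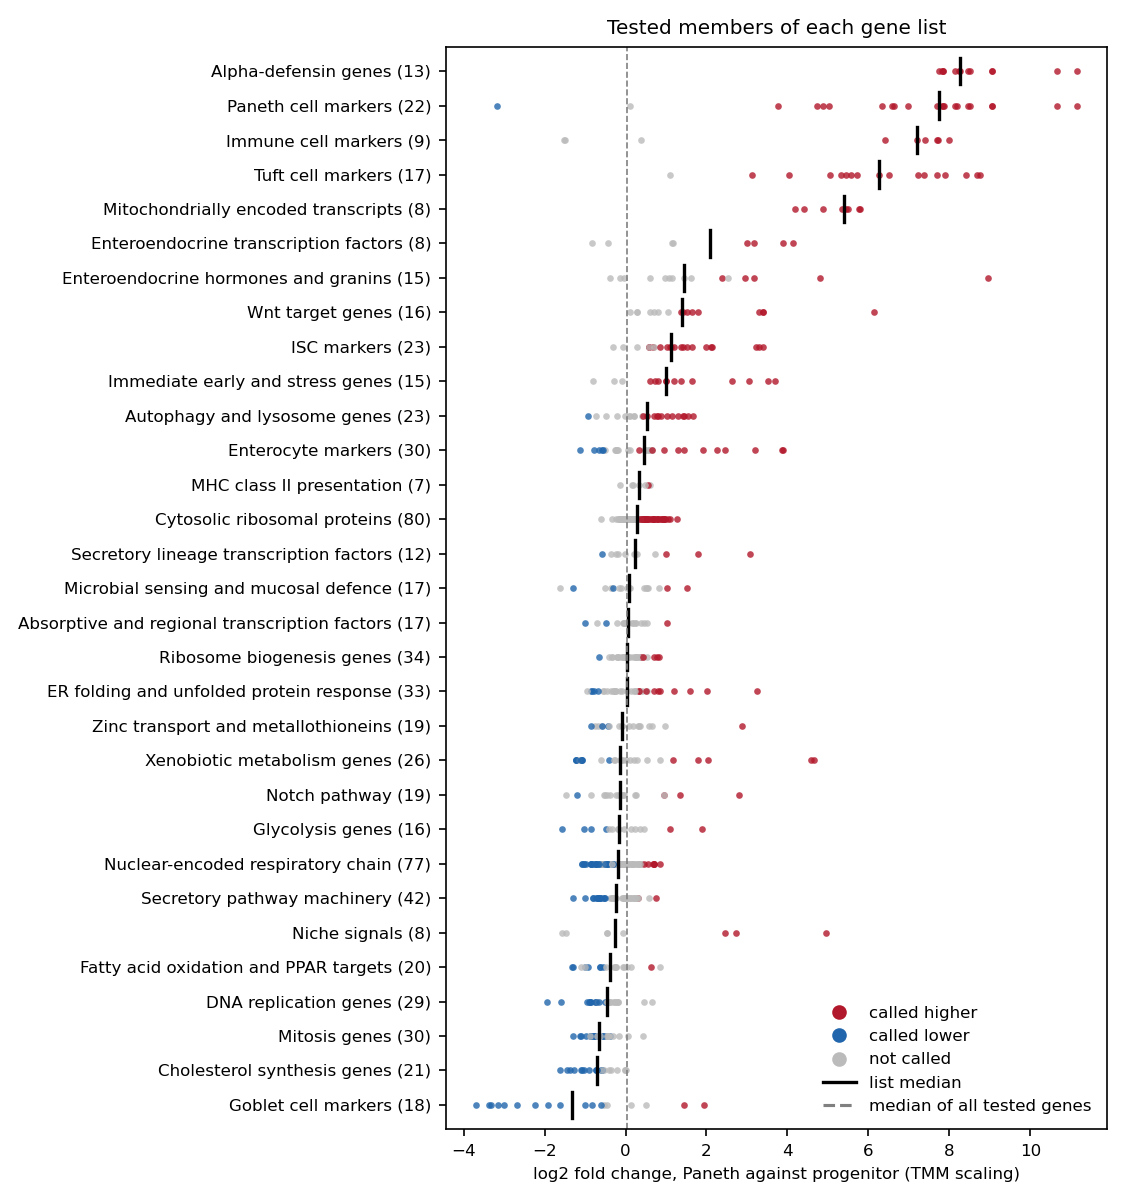
Log2 fold change, Paneth against progenitor, of each tested member of 31 gene lists under TMM scaling; red and blue dots are members called higher and lower, grey dots members not called, black bars list medians and the dashed line the median of all tested genes. Medians run from 8.26 for alpha-defensins to -1.32 for goblet markers; with library totals alone the median of all genes lies at -1.73 and, among others, the ribosomal, autophagy, ISC, enterocyte and immediate early lists have medians below 0.

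Genes of absorptive cells were mixed. Of 30 enterocyte markers tested 11 were higher and 5 lower (median log2 0.47), against 3 higher and 21 lower with library totals alone and 7 higher and 5 lower with the animal as a block. The apolipoprotein genes Apoa1 and Apoa4, of fat export, led them: Apoa1 was at 278, 392 and 813 CPM in Paneth samples and at 8.09, 29.4 and 50.7 CPM in progenitors, without overlap (log2 3.90 ± 0.24, edgeR adjusted p = 4.03e-13). Apoa4 was higher by 3.86 ± 0.22 and the lactase gene Lct by 3.21 ± 0.31. Enpep, a brush border peptidase, was lower (log2 -1.13). The brush border genes Vil1 and Sis did not pass (log2 0.12 and -0.50). Of 17 absorptive and regional transcription factors 1 was higher and 2 were lower (median log2 0.05), against 13.8% and 9.96% of all tested genes. Creb3l3, a regulator of apolipoprotein genes, was higher at 12.7, 53.0 and 112 CPM against 9.13, 24.8 and 43.5 CPM (log2 1.03 ± 0.28, and -0.73 with library totals alone). Gata4, a factor of the proximal intestine, was lower (log2 -1.0 ± 0.17). Gata6, the other lower gene, lost its call in 17 of 22 fits that each left out 1 sample. With library totals alone none of the 17 was higher and all 17 were lower. With the animal as a block 1 was higher and 1 lower.

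Cholesterol synthesis genes were lower in 13 of 21 tested and higher in none (median log2 -0.71). Msmo1, a sterol oxidase, was at 3.97, 20.2 and 51.5 CPM against 35.5, 70.6 and 88.7 CPM, with overlap (log2 -1.61 ± 0.25, edgeR adjusted p = 6.50e-06), and the synthesis enzymes Nsdhl, Lss and Cyp51 were lower too (log2 -1.44, -1.37 and -1.28). Of 20 genes of fatty acid oxidation 7 were lower and 1 higher (median -0.39; none higher and 20 lower with library totals alone, 2 higher and 9 lower with the animal as a block). Cpt1a, the gate of fatty acids into mitochondria, was at 66.6, 94.9 and 142 CPM against 153, 193 and 258 CPM, without overlap (log2 -1.0 ± 0.14, edgeR adjusted p = 9.01e-07). Of 16 glycolysis genes 4 were lower and 2 higher (median -0.17), against 9.96% and 13.8% of all tested genes. Hk2, 1 of the 2 higher, lost its call in 10 of 22 fits that each left out 1 sample. With library totals alone none of the 16 was higher and 13 were lower. With the animal as a block none was higher and 4 were lower. Ldha, lactate dehydrogenase, was at 315, 509 and 626 CPM against 872, 981 and 1136 CPM, without overlap (log2 -1.03 ± 0.10, edgeR adjusted p = 5.46e-10). Of 26 genes of xenobiotic metabolism 8 were lower and 5 higher (median -0.13; 2 higher and 19 lower with library totals alone). The transferase gene Ugt2b34 was lower (log2 -1.22 ± 0.15), and the cytochrome genes Cyp2b10 and Cyp3a11, members of large families, were higher, from progenitor medians of 0.278 and 0 CPM to Paneth medians of 13.5 and 5.87 CPM. The log2 fold change of Cyp2b10 was 4.67, and 5.35 without progenitor female 3; that of Cyp3a11 was 4.59, and 5.39 and 6.23 without progenitor male 5 or female 4.

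Ribosomal protein genes were higher by a small amount: 36 of 80 tested passed and none was lower (median log2 0.29), whereas with library totals alone all 80 were lower. Rpsa, of the small subunit, was at 1704, 2661 and 4133 CPM against 1025, 1243 and 1559 CPM, without overlap (log2 1.11 ± 0.12, edgeR adjusted p = 6.93e-09; -0.66 with library totals alone). Of 34 ribosome biogenesis genes 5 were higher and 1 lower (median 0.05), near or below the 13.8% and 9.96% of all tested genes. Bysl, the lower one, lost its call in 11 of 22 fits that each left out 1 sample. With library totals alone none of the 34 was higher and all 34 were lower. With the animal as a block 4 were higher and none lower. Immediate early and stress genes, which dissociation is known to induce, were higher in 12 of 15 and lower in none (median 1.00; 3 higher and 8 lower with library totals alone). Jun, an AP-1 subunit, was at 29.1, 84.0 and 150 CPM against 9.71, 15.7 and 21.2 CPM, without overlap (log2 2.63 ± 0.21, edgeR adjusted p = 8.76e-12), and the stress factor Atf3 was higher by 3.52 ± 0.50. Of 17 genes of microbial sensing and mucosal defence 2 were higher and 2 lower (median 0.08, and none higher and 14 lower with library totals alone). Calls of 2 and 2 are near the 13.8% higher and 9.96% lower of all tested genes. The antibacterial genes Reg3g and Pglyrp1 were the higher ones, Pglyrp1 at 245, 390 and 542 CPM against 107, 130 and 180 CPM (log2 1.51 ± 0.14, and -0.26 with library totals alone) and Reg3g at 675, 1462 and 2388 CPM against 358, 688 and 1022 CPM (log2 1.03 ± 0.21, and -0.70 with library totals alone). Of 7 MHC class II genes 1 was higher (median 0.34), against 13.8% of all tested genes. That gene was H2-Eb1, which lost its call in 9 of 22 fits that each left out 1 sample. With the animal as a block 4 of the 7 were higher, without the 3 Paneth animals of the fewest nuclear counts none was, and with library totals alone all 7 were lower.

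Did the contrast depend on sex or age? The difference between gates itself differed between males and females for none of 11682 genes (0%; edgeR, lowest adjusted p = 1), with 437 genes (3.74%) at an unadjusted p under 0.05; DESeq2 and limma-voom called 0 as well. Of the 2771 genes called, 2764 had the same sign in both sexes. Calling on the mean over the sexes favours this, so the agreement is no test of a sex difference. Lyz1 had a log2 fold change of 8.02 in males and 7.70 in females. The contrast in mice of 23 to 27 months (12 Paneth and 10 progenitor samples) called 2651 of 12589 genes, and 2697 of the 2771 genes called in young mice had the same sign there. The difference between the ages was called for none of 12589 genes (0%; edgeR, lowest adjusted p = 0.5), with 629 (5%) at an unadjusted p under 0.05, and for none by DESeq2 or limma-voom. Lyz1 was 7.88 ± 0.37 apart in aged mice and 7.86 in young, Mmp7 5.48 ± 0.32 and 4.73, and Wnt3 6.43 ± 0.52 and 4.96; for Wnt3 the aged minus young difference was 1.47 ± 0.62 (edgeR adjusted p = 0.901). A p that misses the threshold does not show that the contrasts are alike.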

How the data were processed

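Young Paneth (12) and progenitor (10) samples were grouped by the labels. The deposited tables hold gene counts, which per the submitters' processing notes come from reads trimmed with cutadapt 3.0, aligned with STAR 2.7.9a to mm10 and counted with HTSeq 0.13.5; the notes also name DESeq2 1.30.1. Neither the order of the steps nor the gene annotation and strandedness setting are stated in the labels. CPM deposited by the authors equal the counts scaled to a common total (largest difference 4.95e-10) and were not used further. Of 32285 gene IDs, 127 without a symbol held 0.00162% of the counts.

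Technical Paneth libraries were summed per animal. Genes passing edgeR's filterByExpr (minimum count 10) were scaled by TMM and tested with edgeR 4.0.16 (R 4.3.3) by quasi-likelihood, with a mean for each gate and sex, the contrast averaged over the sexes and Benjamini-Hochberg adjustment at 0.05; the SE is the log2 fold change over the root of F. The sex and age differences were interaction contrasts, the latter in a fit with the aged samples. Scripts were tested on simulated data. Alternatives used DESeq2 1.42.0 and limma 3.58.1, other scalings, filters and samples, the animal as a block, and each sample left out in turn. Unless limma-voom is named, the block was an edgeR fit to the 8 animals with both gates only, fewer samples than the main fit. In edgeR each gene had a spread shared by both gates, whereas limma-voom used weights per gate. Gates of the same animal come from its own tissue. Residuals correlated at 0.0062 to 0.0856 (median 0.0646) within the 8 animals with both gates. In 52 pairs of different animals of the same sex they ran from -0.0893 to 0.0758 (median -0.0103), so the ranges overlap.

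The members, gene lists and tests were chosen with earlier results of these data known. Named genes were fixed markers, the 10 furthest called genes in each direction with a mean of at least 10 CPM in the higher gate, and up to 4 members of each list with the smallest p in its main direction and 2 in the other; other list members are named after their values were seen, and some named genes are not reported here. Depth per sample is in the report; counting intervals (95%) and floors of 3 counts cover counting error only, since reads are not independent molecules.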

Additional observations from a re-analysis of the deposited data

Results flagged for a closer look

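Each value of the named genes, of the summed marker lists and of the mitochondrial share was compared with the other samples of the same gate and sex (5 or 6 samples). In 76 of 656 groups of values, a sample's gap to its nearest neighbour was too large for the group's range by Dixon's 95% criterion. Chance gives about 1 in 20 only where values are normally distributed. The CPM were not log-transformed, and in some groups of low genes, such as Samd5 in progenitors, only 1 sample had any count. The 76 can therefore not be compared with that rate, and the values below are descriptions. Each value below is in CPM and is followed by the nearest other sample.

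Paneth female 1 stood above the others in Ccna2 at 199 (nearest 89.5), Olfm4 at 3103 (nearest 1917) and the summed ISC markers at 4759 (nearest 3093). Paneth female 1 stood below the others in Hsp90b1 at 166 (nearest 256). Paneth female 2 stood above the others in Areg at 17.6 (nearest 4.34), Atp5e at 183 (nearest 108), Hk2 at 20.5 (nearest 7.27) and Scin at 22.6 (nearest 8.95). Paneth female 4 stood above the others in Anxa3 at 12.3 (nearest 4.00), Avil at 287 (nearest 97.4) and the summed Tuft cell markers at 1923 (nearest 685). Paneth female 5 stood above the others in Foxa1 at 47.7 (nearest 23.9) and Nop56 at 51.9 (nearest 32.5). Paneth female 6 stood above the others in Bcas1 at 15.3 (nearest 4.29), Bhlha15 at 190 (nearest 99.2), Defa29 at 5948 (nearest 2367), Ehhadh at 11.6 (nearest 6.35) and Lyz2 at 45.1 (nearest 20.1). Paneth female 6 stood above the others in Mmp7 at 5715 (nearest 2617). Paneth male 1 stood above the others in Cyp3a11 at 36.7 (nearest 7.95), Ephb3 at 36.4 (nearest 14.8), Hk2 at 26.9 (nearest 8.83) and Jag2 at 25.7 (nearest 7.79). Paneth male 2 stood above the others in Gata4 at 51.8 (nearest 39.5), Igha at 33.6 (nearest 6.58), Rfng at 113 (nearest 42.7) and Slc25a20 at 19.6 (nearest 9.86). Paneth male 2 stood below the others in Slc30a5 at 6.65 (nearest 28.0), Sox9 at 17.3 (nearest 32.5) and Uqcrfs1 at 176 (nearest 267). Paneth male 4 stood above the others in Nr4a1 at 12.3 (nearest 2.99) and mt-Cytb at 575772 (nearest 360494). Paneth male 5 stood above the others in Aurkb at 81.2 (nearest 53.5), Dclk1 at 70.9 (nearest 37.3), Fer1l6 at 11 (nearest 2.25), Gip at 741 (nearest 79.0) and Rfx6 at 26.8 (nearest 9.81). Paneth male 5 stood above the others in Sst at 567 (nearest 89.3) and the summed Enteroendocrine hormones and granins at 3099 (nearest 1210).

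Progenitor female 1 stood above the others in Pax6 at 0.707 (nearest 0.103) and Sst at 2.83 (nearest 0.206). Progenitor female 2 stood above the others in Nr4a1 at 1.61 (nearest 0.362), Samd5 at 0.178 (nearest 0), Sdha at 602 (nearest 533) and the summed Mitosis genes at 2300 (nearest 1859). Progenitor female 3 stood above the others in Atf3 at 4.70 (nearest 1.85), Cyp2b10 at 2.17 (nearest 0.357), Igha at 0.543 (nearest 0), Igkc at 0.181 (nearest 0) and Sqstm1 at 63.5 (nearest 49.2). Progenitor female 3 stood below the others in Slc30a7 at 28.2 (nearest 42.9). Progenitor female 4 stood above the others in Cyp3a11 at 0.823 (nearest 0), Defa3 at 1.34 (nearest 0.357), H2-Eb1 at 216 (nearest 119), Habp2 at 1.75 (nearest 0.707) and Vgf at 0.309 (nearest 0). Progenitor female 4 stood above the others in Wnt3 at 6.07 (nearest 2.02). Progenitor female 5 stood above the others in Hk2 at 5.59 (nearest 3.62) and Nkd1 at 1.83 (nearest 0). Progenitor female 5 stood below the others in Ctss at 42.2 (nearest 60.1). Progenitor male 1 stood above the others in Clca1 at 2187 (nearest 1357), Dclk1 at 1.68 (nearest 0.158), Defa21 at 1.37 (nearest 0.474), Pygl at 0.458 (nearest 0) and Rps24 at 513 (nearest 403). Progenitor male 1 stood below the others in Apoa4 at 6.41 (nearest 16.9). Progenitor male 2 stood above the others in Slc30a2 at 12.5 (nearest 3.73). Progenitor male 3 stood above the others in Ehhadh at 29.6 (nearest 14.5). Progenitor male 3 stood below the others in Reg3g at 375 (nearest 928) and the summed Immune cell markers at 7.35 (nearest 10.4). Progenitor male 4 stood above the others in Fosb at 1.07 (nearest 0.458), Nkd1 at 0.0891 (nearest 0) and Rfx6 at 1.87 (nearest 0.504). Progenitor male 5 stood above the others in Cyp3a11 at 2.54 (nearest 0.705), Gzma at 0.913 (nearest 0) and Siglecf at 0.406 (nearest 0).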

How the results depend on the processing

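Of 154 named genes, the calls of 149 were kept with upper-quartile factors or with no low-count filter, and those of 153 with DESeq2. Without scaling beyond library totals, 9980 genes were called, 221 higher and 9759 lower, and 29 named genes changed sign: Acaa1a (log2 -1.15), Atg7 (-0.41), Atp5e (-0.88), Creb3l3 (-0.73), Edem2 (-1.0), Ern2 (-0.16), Foxa1 (-0.83), H2-Eb1 (-1.25), Hk2 (-0.64), Lamp2 (-1.02), Mybbp1a (-1.33), Noc2l (-1.05), Nop14 (-0.90), Nop56 (-1.0), Notch1 (-0.41), Olfm4 (-0.64), Pglyrp1 (-0.26), Ramp1 (-0.37), Reg3g (-0.70), Rfng (-0.82), Rpl37 (-0.82), Rps19 (-0.48), Rps24 (-0.90), Rpsa (-0.66), Sec61a1 (-1.46), Sqstm1 (-0.91), Srp68 (-0.99), Ulk1 (-0.47) and Uqcrq (-1.08). The median of all genes moved with them. Library totals include the mitochondrial counts, which were 51.4 to 73.4% of Paneth samples and 2.72 to 7.05% of progenitor samples. With mitochondrially encoded genes left out and TMM kept, 2825 genes were called (1709 higher, 1116 lower). All 149 named genes tested then kept their call. The count of lower genes was 1928 with limma-voom, which used weights per gate, whereas edgeR fitted each gene with a spread shared by both gates. The cause of the higher count was not tested. glmTreat beyond 2-fold, a stricter threshold, called 377 genes (344 higher, 33 lower). The first technical library of each Paneth animal alone, with fewer counts, gave 1367 genes (816 higher, 551 lower), and 27 of 147 named genes tested lost their call, Mki67 among them.

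With the animal as a replicate block over the 8 animals with both gates, edgeR called 2361 genes (1205 higher, 1156 lower), against 2330 (1390 and 940) in the same animals without the block. Areg, Bysl, Creb3l1, Duoxa2, Gata6, Hk1, Hk2, Jag2, Mybbp1a, Notch1 and Vgf lost their call with the block, Muc2 gained one, and no other named call of the 152 tested changed. In the same 8 animals without the block, 13 of the 152 lost their call and none gained one. How far the smaller set of samples accounts for the losses was not tested. limma-voom with the animal as a block called 3606 genes, 1540 higher and 2066 lower. The mitochondrial difference was 58.98 points within the 8 animals (exact sign-flip permutation test, p = 0.00781, the smallest these 8 allow).

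Leaving out each of the 22 samples in turn gave 2492 to 2934 called genes, 1466 to 1735 higher and 946 to 1274 lower, and a mitochondrial difference of 56.14 to 58.04 points. The sex and the age difference stayed at 0 genes, over 22 and 44 such fits. Some named calls were lost in such fits. Gata6 lost its call in 17 of the 22, Bysl in 11, and Creb3l1, Hk2 and Mybbp1a in 10 each. H2-Eb1 lost its call in 9, Sec61a1 in 5 and Duoxa2 in 4, and Hk1, Pigr, Rfx6 and Slc39a4 in 1 each. Without the 3 Paneth animals with the fewest nuclear counts, a setting chosen after seeing the data, 2860 genes were called, and Bysl, Gata6, H2-Eb1 and Nop14 lost their call. Up to 1156 tested genes had no count in a Paneth sample and up to 189 in a progenitor sample, which limits what can be said of low genes; the part of depth in this was not tested.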
